A study of Mus musculus with 3 samples.

Results

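Hormone receptors let bone cells answer to signals carried in the blood. The members described here are the genes Pth1r, Vdr, Esr1, Nr3c1, Ghr, Thra, Thrb and Insr, chosen as all probe sets on the array whose only gene symbol is one of these names. They make up 8 of 18193 named genes and 22 of 45101 probe sets. The study sorted endosteal cells, which line the inside of bone, from the femur and tibia of C57BL/6 mice; the labels give no age, sex, number of mice or treatment. All 3 populations were released with collagenase and were depleted of cells bearing CD45 (blood cells), CD31 (vessel lining) or Ter119 (red cells). They were ALCAM(+) Sca-1(-) cells (ALCAM+ below), ALCAM(-) Sca-1(+) cells (Sca-1+ below) and ALCAM(-) Sca-1(-) cells (double-negative below). ALCAM mediates adhesion between cells, and Sca-1 is found on stem and progenitor cells. Each population was hybridised to 1 array, so no difference has a replicate check and no test between populations was possible.

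Parathyroid hormone acts on osteoblasts and growth plate chondrocytes through a G-protein coupled receptor that raises cAMP. Vitamin D, oestrogen, glucocorticoid and thyroid hormone act through nuclear receptors that bind DNA and change transcription. Growth hormone acts through a cytokine-type receptor and the kinase Jak2, and insulin through a receptor tyrosine kinase. In bone these hormones are known for their effects on growth, mineral supply and the turnover of matrix.

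Values are MAS5 signals on a linear scale, in arbitrary units that compare populations for the same probe set but not different genes. A gene was represented by its brightest probe set, and 75.4, the median signal of all non-control probe sets, served as a floor below which values were given no order. A difference was counted when it reached 4-fold, with 2-fold as a second size rule; these are rules of size and not tests. To give a scale for error, the log2 differences of the brightest and next brightest probe sets of the same gene were compared over 4152 genes, and they disagreed with an SD of 0.54, 0.67 and 0.75 for ALCAM+ against double-negative, Sca-1+ against double-negative and ALCAM+ against Sca-1+ cells. This disagreement is within arrays; how far sorts or mice vary was not measured. Since the comparisons share arrays, they are not independent, and the third is the difference of the other two.

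The arrays had 48.9% to 51.4% of probe sets above the floor. Alcam gave 267.7 in ALCAM+ cells, and 41.1 and 36.3, both below the floor, in Sca-1+ and double-negative cells, and the CD31 gene Pecam1 stayed below the floor on all 3 arrays. The gene of Sca-1 itself is not analysed here. Ptprc, which encodes CD45, was above the floor in Sca-1+ cells (163.2) and double-negative cells (159.4), and at 11.6 in ALCAM+ cells. The summed signals of marker lists differed between the populations. The 6 measured osteoblast markers summed to 138610 in ALCAM+, 9770.4 in Sca-1+ and 59750.1 in double-negative cells, and the 8 chondrocyte markers to 183353, 4619 and 169846. The 9 progenitor and fibroblast markers summed to 6050.1, 109984 and 3359. Of these, Pdgfra gave 5122 in ALCAM+ and 671.5 in double-negative cells, and the order of those sums rests on it. The median log2 difference of the list for ALCAM+ against double-negative cells was -0.47. The 7 erythroid markers summed to 1578, 632.4 and 17796, the 5 proliferation markers to 1097, 1163 and 22671, and the 10 neutrophil and monocyte markers to 793.6, 15717 and 3492. In bulk samples of this kind, fewer cells of a type and less RNA per cell cannot be told apart.

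Of the 8 receptor genes 7 were above the floor on at least 1 array. The receptors fell into 3 patterns. Pth1r and Vdr were lowest in Sca-1+ cells, where Esr1, Ghr and Nr3c1 were highest, and Thra and Insr differed little. Thrb was below the floor throughout. Of the 7 measured members, 5 had their highest signal in Sca-1+ cells, 2 in ALCAM+ cells and 0 in double-negative cells. Over all 12643 measured genes the highest signal lay in these populations for 38.7%, 28.1% and 33.2%. The 5 include Thra and Insr, whose Sca-1+ and ALCAM+ signals differed by less than the disagreement SD.

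**Figure D1:**
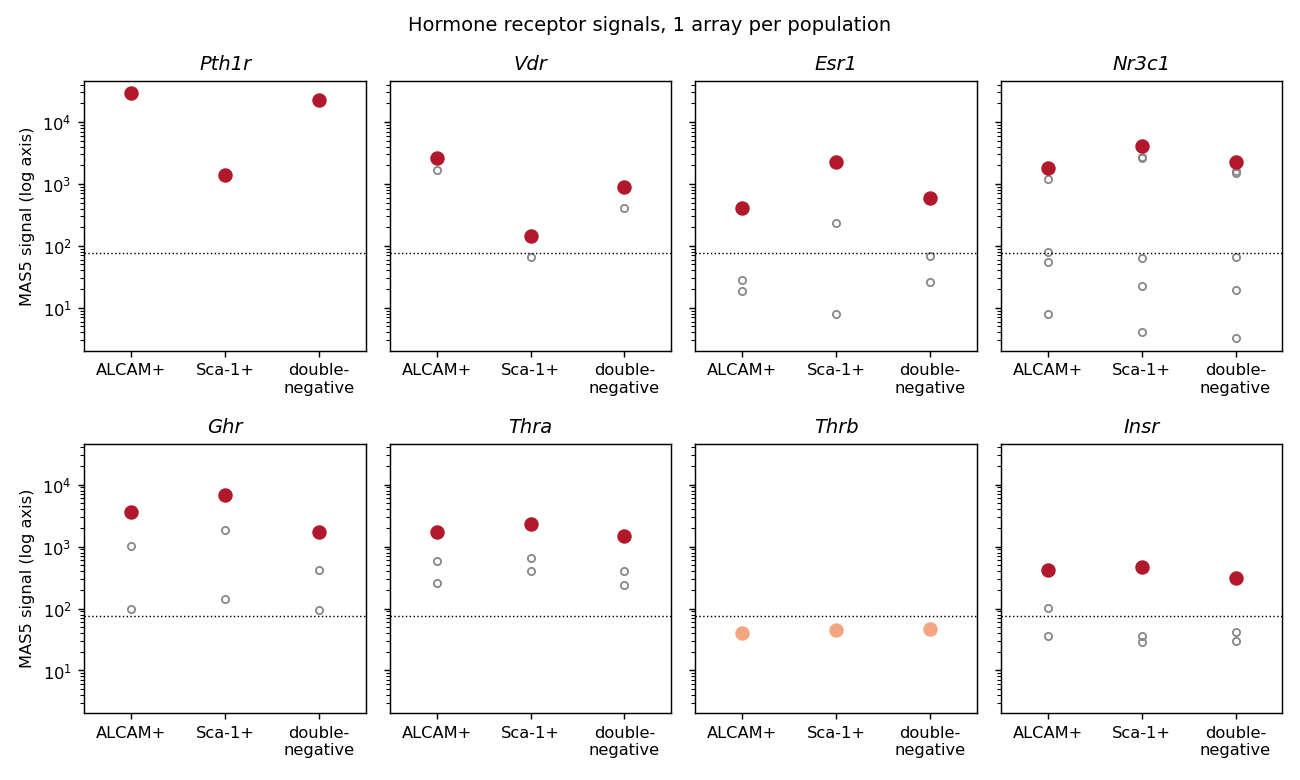
MAS5 signals (log axis) of each receptor gene in the 3 sorted populations, 1 array each. Filled points are the brightest probe set (pale for Thrb, below the floor), open points the other probe sets, and the dotted line is the floor of 75.4; Pth1r and Vdr dip in Sca-1+ cells and Esr1 peaks there.

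Pth1r, the shared receptor of parathyroid hormone and parathyroid hormone-related protein, lies on chromosome 9 (GRCm38.p6, 110722085 to 110747145). Its single probe set gave 28980.3 in ALCAM+ cells, 22562 in double-negative cells and 1391 in Sca-1+ cells. Both populations without Sca-1 were high, and Sca-1+ cells were low but still above the floor. The signal was 20.8-fold higher in ALCAM+ than in Sca-1+ cells and 16.2-fold lower in Sca-1+ than in double-negative cells (log2 differences of 4.38 and -4.02). Only 1.77% and 1.67% of measured genes differed more in these comparisons. ALCAM+ and double-negative cells differed by 1.28-fold (log2 difference 0.36), less than the disagreement SD, so their order is not settled. With no other probe set, the direction for Pth1r has no second reading within the arrays.

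Vdr, the nuclear receptor of active vitamin D, lies on chromosome 15 (97854427 to 97908296). Its brightest probe set gave 2627 in ALCAM+ cells, 892.8 in double-negative cells and 141.8 in Sca-1+ cells, and its other probe set gave 1649, 405.5 and 66.8. Both probe sets placed the populations in the same order, each step larger than the disagreement SD. For the brighter one, ALCAM+ cells were 18.5-fold above Sca-1+ cells and 2.94-fold above double-negative cells, and Sca-1+ cells were 6.30-fold below double-negative cells. With the other probe set, ALCAM+ cells were at least 21.9-fold above Sca-1+ cells and 4.07-fold above double-negative cells, since its signal in Sca-1+ cells was below the floor. The step between Sca-1+ and double-negative cells fell below 4-fold, to a log2 difference of -1.04, when the floor was set at the 75th percentile, which lies above the signal in Sca-1+ cells. Vdr was thus the member that differed most between the populations without Sca-1, whereas Pth1r was close to equal there.

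The levels of Pth1r and Vdr ran alongside the osteoblast and chondrocyte marker sums given above, which were also lowest in Sca-1+ cells. All 6 osteocyte markers, of which 3 were measured, summed to 25248 in ALCAM+, 4999.3 in Sca-1+ and 2178 in double-negative cells. That sum was lowest in double-negative cells, but its members did not share this order. Between Sca-1+ and double-negative cells, Pdpn gave 3551 against 858.0 and Phex 1376 against 1165. Dmp1 went the other way, at 11.8, below the floor, against 114.7. The part of cell type makeup in these receptor levels was not tested. Because Pth1r and Vdr shared a low level in Sca-1+ cells and Esr1 was highest there, the 250 bases before a start site of each are shown from RefSeq (GRCm38.p6), 5′ to 3′ on the gene's strand. Capitals mark the GC box GGGCGG on either strand, a motif bound by Sp1 family factors. Pth1r has 3 listed starts, of which the outermost and the innermost are given, and Esr1 has 2, of which the outer is given.
Pth1r, outermost start, chr9:110747146-110747395, minus strand: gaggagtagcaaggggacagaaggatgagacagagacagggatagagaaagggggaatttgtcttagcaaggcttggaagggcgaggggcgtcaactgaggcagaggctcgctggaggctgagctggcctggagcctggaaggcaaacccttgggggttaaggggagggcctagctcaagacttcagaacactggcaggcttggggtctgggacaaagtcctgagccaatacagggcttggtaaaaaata
Pth1r, innermost start, chr9:110742611-110742860, minus strand: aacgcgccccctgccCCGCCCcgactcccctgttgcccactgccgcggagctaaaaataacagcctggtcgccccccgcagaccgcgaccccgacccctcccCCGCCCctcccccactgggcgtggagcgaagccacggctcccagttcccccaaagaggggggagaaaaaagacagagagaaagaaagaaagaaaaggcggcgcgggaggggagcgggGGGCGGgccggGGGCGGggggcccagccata
Vdr, chr15:97908297-97908546, minus strand: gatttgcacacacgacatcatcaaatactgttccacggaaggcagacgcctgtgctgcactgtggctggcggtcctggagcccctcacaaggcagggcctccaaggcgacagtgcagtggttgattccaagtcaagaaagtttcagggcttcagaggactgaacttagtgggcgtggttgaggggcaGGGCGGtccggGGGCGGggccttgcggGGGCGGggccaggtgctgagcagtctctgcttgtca
Esr1, outer start, chr10:4611739-4611988, plus strand: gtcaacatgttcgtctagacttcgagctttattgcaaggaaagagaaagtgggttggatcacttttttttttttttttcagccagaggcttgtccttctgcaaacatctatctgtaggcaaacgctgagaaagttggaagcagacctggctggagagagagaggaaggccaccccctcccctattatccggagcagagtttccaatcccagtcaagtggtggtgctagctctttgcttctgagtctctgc

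The Pth1r windows held 0 (outermost), 1 (middle) and 4 GC boxes (innermost), the Vdr window 3 and both Esr1 windows 0. The windows of Ghr, a gene highest in Sca-1+ cells like Esr1, held 2 and 0, and 32.7% of 32851 windows in the table held at least 1. G and C made up 56.0%, 65.6% and 70.4% of the Pth1r windows, 61.2% of the Vdr window, 47.6% and 59.6% of the Esr1 windows and 65.6% and 52.0% of the Ghr windows, against a median of 52.4%. The RUNX motif TGTGGT, present in 14% of all windows, the nuclear receptor motif AGGTCA, also in 14%, the cAMP response element TGACGTCA, in 1.55%, and TATAAA, in 12.4%, each searched on both strands, had 0 matches in the windows of Pth1r, Vdr and Esr1. Of these 4 motifs, the Ghr windows held 1 TATAAA, and the Thrb windows 1 AGGTCA and 1 TATAAA. The Thrb windows held 3 and 0 GC boxes. These are matches of letters and no measure of binding, and which start the cells used was not measured. RefSeq windows were found for 5 of the 8 genes.

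Esr1, the oestrogen receptor alpha gene, lies on chromosome 10 (4611989 to 5005633). It showed the reverse of the Vdr pattern, with 2248 in Sca-1+ cells, 598.9 in double-negative cells and 409.9 in ALCAM+ cells. Sca-1+ cells were 5.48-fold above ALCAM+ cells and 3.75-fold above double-negative cells, the latter just under the 4-fold rule. ALCAM+ and double-negative cells differed by 1.46-fold, about the size of the disagreement SD. A second probe set was above the floor in Sca-1+ cells alone, at 233.6, against 69.1 in double-negative and 27.7 in ALCAM+ cells, where it exceeded either by at least 3.10-fold. The third was below the floor on the 3 arrays. When the 3 probe sets were averaged, the log2 difference of ALCAM+ against Sca-1+ cells shrank from -2.46 to -1.36 and no longer reached 4-fold.

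Ghr, the growth hormone receptor gene on chromosome 15 (3317755 to 3583352), was also highest in Sca-1+ cells but lowest in double-negative cells. The brightest of its 3 probe sets gave 6788 in Sca-1+, 3581 in ALCAM+ and 1722 in double-negative cells. Sca-1+ cells were 3.94-fold above double-negative cells, and ALCAM+ cells were 2.08-fold above them. The next probe set, at 1858, 1024 and 423.9, gave 4.38-fold and 2.42-fold for the same comparisons. The dimmest gave 140.6, 98.5 and 93.8, in the same order but with steps of 1.5-fold and 1.05-fold. Ghr and Vdr were thus the receptors that exceeded 2-fold between ALCAM+ and double-negative cells, both higher in ALCAM+ cells, while in Sca-1+ cells they went opposite ways. These 2-fold calls depend on the scaling: the log2 differences were 0.93 for Vdr and 0.43 for Ghr when scaled on poly-A controls, and Ghr was also below 2-fold when scaled on hybridization controls (0.56) or with averaged probe sets (0.80).

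Nr3c1 encodes the glucocorticoid receptor. Its brightest probe set gave 4131 in Sca-1+, 2250.1 in double-negative and 1814 in ALCAM+ cells. Sca-1+ cells were 2.28-fold above ALCAM+ cells and 1.84-fold above double-negative cells, each more than the disagreement SD. The 2 other probe sets above the floor on all 3 arrays were also highest in Sca-1+ cells, at 2686 and 2617. They did not agree on the order of the remaining populations: one gave 1937 in ALCAM+ and 1514 in double-negative cells, the other 1181 and 1598. A further probe set was just above the floor in ALCAM+ cells, at 80.0, and the last 2 of the 6 were below it throughout.

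The higher signals of Esr1, Ghr and Nr3c1 in Sca-1+ cells ran alongside the fibroblast and progenitor markers, all 9 of which passed 4-fold against double-negative cells on the Sca-1+ side. Neutrophil and monocyte markers went both ways in that comparison: 5 of 10, S100a8 (4900.5 against 575.9) among them, passed 4-fold on the Sca-1+ side and 2 on the other, Mpo at 91.4 against 1355 and Elane at 63.5 against 483.0. The part of these cells in the receptor levels was not tested.

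Thra, which encodes thyroid hormone receptor alpha on chromosome 11 (98740776 to 98769006), was measured by 3 probe sets. The brightest gave 2282 in Sca-1+, 1706 in ALCAM+ and 1490 in double-negative cells. The steps, at most 1.53-fold, were smaller than the disagreement SD, although all 3 probe sets placed the populations in that order. The Thra span overlaps that of Nr1d1, a clock repressor gene, by 1075 bases in the RefSeq table. Nr1d1 read 2966 for ALCAM+, 2976 for Sca-1+ and 3834 for double-negative cells. Thrb, which encodes the beta form on chromosome 14 (17659225 to 18040097), has a single probe set. It read 40.9 for ALCAM+, 45.6 for Sca-1+ and 46.1 for double-negative cells, all below the floor, so no fold is given. This shows only that it was not above the floor with this probe set.

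Insr, the insulin receptor gene on chromosome 8 (3150922 to 3279649), gave 464.2 in Sca-1+, 424.9 in ALCAM+ and 314.6 in double-negative cells. The largest step was 1.48-fold, within the disagreement SD. Its second probe set was above the floor in ALCAM+ cells alone, at 102.0, and the third was below it on all arrays.

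ALCAM+ and double-negative cells both lack Sca-1 and were sorted apart by ALCAM. The comparison does not isolate ALCAM, since erythroid marker sums were 1578 against 17796 and proliferation marker sums 1097 against 22671. Here 0 of 7 measured receptors reached 4-fold. Of all measured genes 4.68% did, 2.01% higher and 2.67% lower in ALCAM+ cells. At 2-fold 2 were higher (Vdr and Ghr) and 0 lower, where 6.68% of measured genes were higher and 10.6% lower. The median log2 difference of the receptors was 0.36, against -0.03 for all measured genes.

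Sca-1+ and double-negative cells both lack ALCAM and were sorted apart by Sca-1. This comparison does not isolate Sca-1 either, since the same sums were 632.4 against 17796 and 1163 against 22671. Here 2 of 7 receptors passed 4-fold, both lower in Sca-1+ cells (Pth1r and Vdr). Among all genes 4.71% of those measured were lower and 5.46% higher. At 2-fold Esr1 and Ghr joined them on the high side, where 15% of measured genes were higher and 12.7% lower. The receptors' median log2 difference was 0.62 and that of all genes 0.

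Between ALCAM+ and Sca-1+ cells 3 receptors passed 4-fold, with Pth1r and Vdr higher in ALCAM+ cells and Esr1 lower. Here 3.99% of measured genes were higher and 5.86% lower. Nr3c1 joined Esr1 at 2-fold, where 15.8% were lower. The median over the receptors was -0.42, against -0.01. With 7 genes these counts describe the members and nothing wider.

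**Figure D2:**
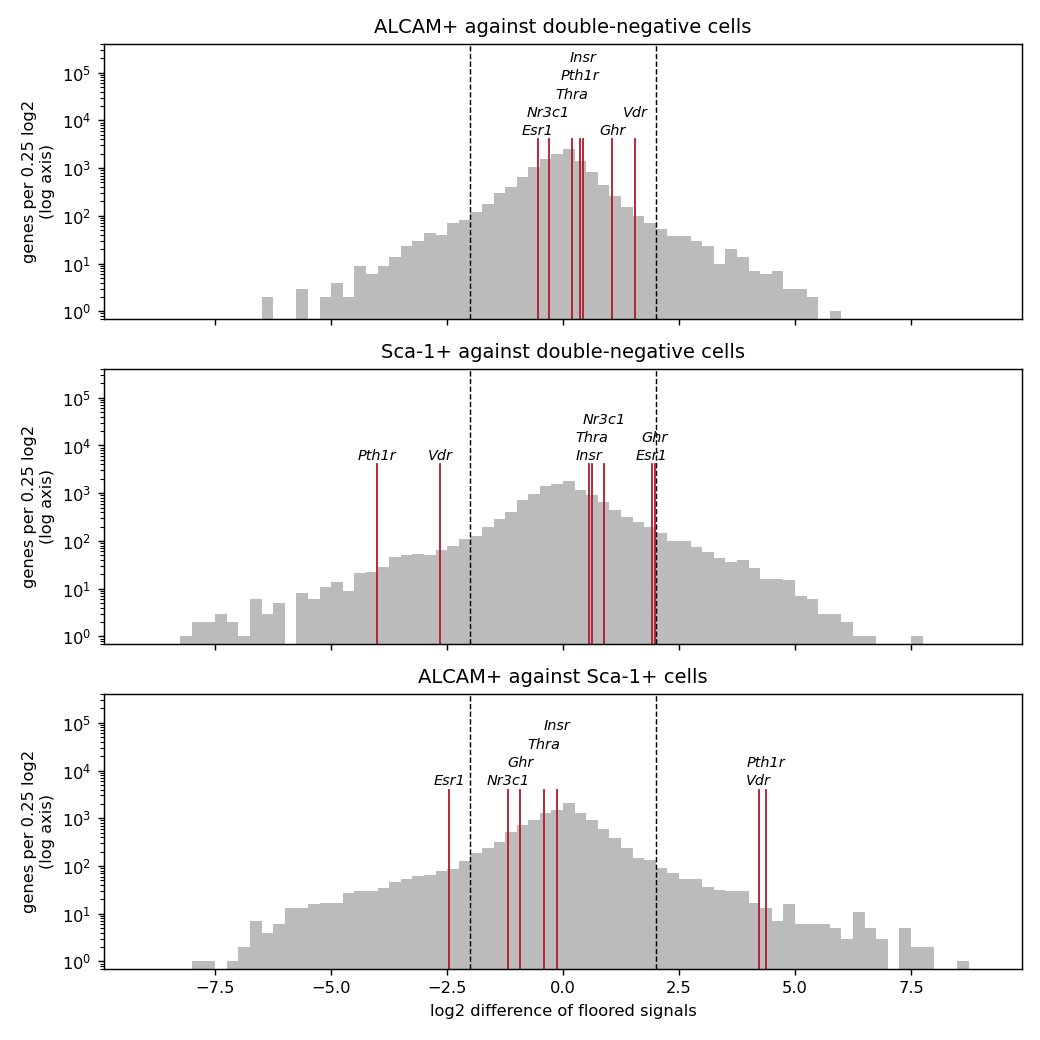
Histograms of the log2 difference of all 12643 measured genes in each comparison (counts on a log axis), with the 7 measured receptors as red lines and 4-fold as dashed lines. Pth1r and Vdr lie far out at -4.02 and -2.65 for Sca-1+ against double-negative cells and at 4.38 and 4.21 for ALCAM+ against Sca-1+ cells, and no receptor passes the dashed lines in the first comparison.

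The scaling of the arrays bears on all these values. The 24 probe sets of added poly-A control RNAs averaged (geometric mean) 420.1 for ALCAM+, 227.6 for Sca-1+ and 271.9 for double-negative cells. Scaled to equal spike-in signal, the median of all measured genes moved to -0.58, 0.20 and -0.82 in the 3 comparisons. Pth1r then lay 0.27 (log2) below zero in ALCAM+ against double-negative cells, above that median, and Thra and Insr also crossed zero there. Pth1r, Vdr and Esr1 kept their direction against Sca-1+ cells under all 9 alternatives. The log2 differences were 3.50 to 4.38, 2.60 to 4.33 and -3.34 to -1.36 for ALCAM+ against Sca-1+ cells. Pth1r has a single probe set above every floor used, so only quantile normalization and the control scalings could change its value. The Vdr and Esr1 values were unchanged by the lower floors, by no floor and by leaving out probe sets by name ending.

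**Figure D3:**
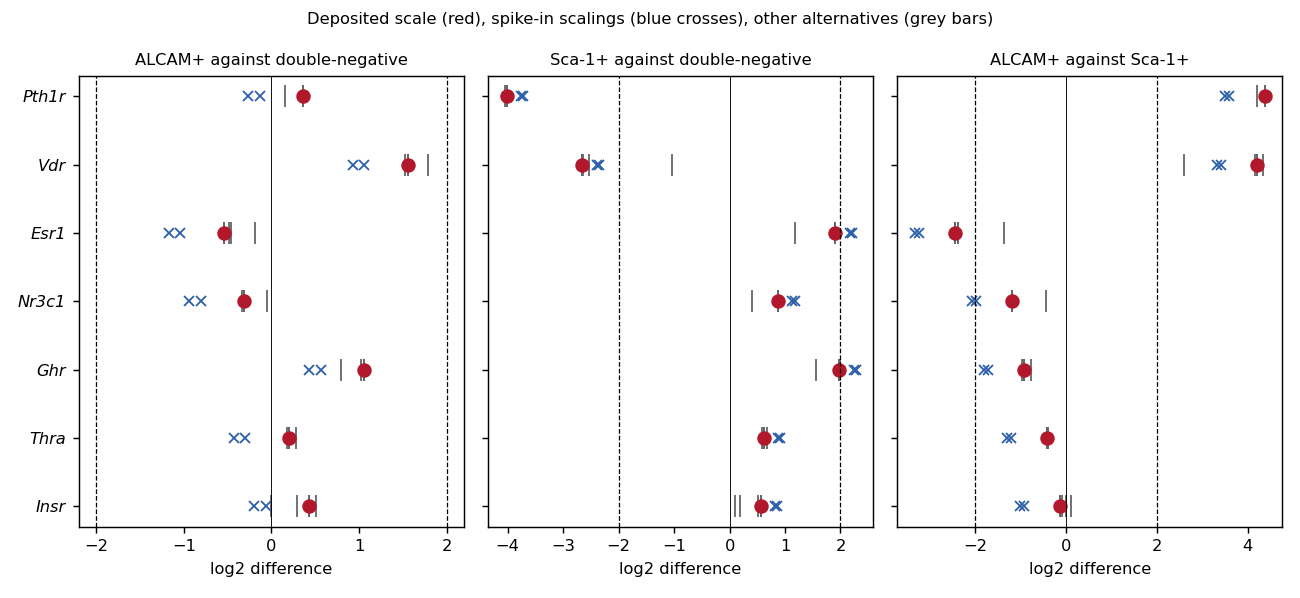
Log2 differences of the 7 measured receptors in the 3 comparisons under the deposited scale (red points), spike-in scalings (blue crosses) and other processing alternatives (grey bars); dashed lines mark 4-fold. Pth1r and Vdr stay above 4-fold in ALCAM+ against Sca-1+ cells under every alternative shown, and the spike-in scalings shift all receptors the same way within a comparison. The Pth1r value could move only under quantile normalization and the spike-in scalings. The Vdr value was unchanged by the lower floors, by no floor and by leaving out probe sets by name ending.

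The genes around these receptors were taken from 9 lists of ligands, partners, enzymes and target genes, with 108 measured genes in all. At 4-fold, ALCAM+ against double-negative cells gave 2 higher and 2 lower (3.7%), Sca-1+ against double-negative cells 7 higher and 5 lower (11.1%), and ALCAM+ against Sca-1+ cells 5 higher and 10 lower (13.9%). The backgrounds over all measured genes, 4.68%, 10.2% and 9.85%, were of like size. Medians were within 0.07 of zero on the log2 scale in each comparison.

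In the list of the parathyroid hormone and calcitonin family, 8 genes were measured. Between ALCAM+ and Sca-1+ cells, 1 passed 4-fold on the ALCAM+ side and 2 on the Sca-1+ side. The median log2 difference was 0.16. Ramp1, which encodes a protein that pairs with the calcitonin receptor-like receptor, gave 5262 in ALCAM+, 690.5 in double-negative and 168.3 in Sca-1+ cells, the order seen for Vdr, and ALCAM+ cells were 31.3-fold above Sca-1+ cells. All 3 probe sets for it that were above the floor read highest in ALCAM+ cells. Only 1 of them, the brightest, placed Sca-1+ cells below double-negative cells, so that part of the order rests on it. Ramp2, its relative in the adrenomedullin receptor, went the other way, with 5140.0 in Sca-1+, 280.2 in double-negative and 121.3 in ALCAM+ cells. Calcrl, the receptor both pair with, gave 1915 in Sca-1+ cells and was below the floor in the others, at least 25.4-fold lower, a difference that passed 4-fold under 7 of 9 alternatives. Of 6 endothelial markers 3 were measured, and with Tek at 630.6 in Sca-1+ cells and below the floor in the others. Vwf was above the floor in double-negative cells alone, at 99.4, and Kdr in ALCAM+ cells alone, at 76.7; Pecam1, Cdh5 and Emcn were below the floor on all arrays, and the part of these cells in the level of Calcrl was not tested. Casr, the calcium-sensing receptor gene, had 1 of its 2 probe sets above the floor. That probe set gave 322.4 in double-negative cells, 75.8 in Sca-1+ cells, barely above the floor, and 36.7, below it, in ALCAM+ cells. The difference from double-negative cells passed 4-fold under 6 of 8 alternatives for ALCAM+ cells and 3 of 8 for Sca-1+ cells. Calcr and Pth2r, the calcitonin receptor and the related parathyroid receptor genes, were below the floor throughout, as was Pth.

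Of 13 measured parathyroid hormone and cAMP response genes, 1 passed 4-fold on the ALCAM+ side against Sca-1+ cells and 0 on the other, and the median was -0.06. Mmp13, a collagenase gene of hypertrophic cartilage and osteoblasts, gave 2752 in ALCAM+, 1622 in double-negative and 211.6 in Sca-1+ cells, and like Pth1r it was lowest in Sca-1+ cells. Rgs2, which encodes a brake on G-protein signalling, read 1545 for ALCAM+, 903.3 for Sca-1+ and 379.4 for double-negative cells, a 4.07-fold range. Its difference between ALCAM+ and double-negative cells passed 4-fold under 5 of 9 alternatives. The list as a whole did not run with Pth1r: Nr4a2 differed by at most 1.29-fold between populations and Nr4a3, by the brighter of its 2 probe sets above the floor, was 2.84-fold lower in ALCAM+ than in Sca-1+ cells; the other did not share that direction.

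Among 10 measured vitamin D genes, the same comparison had 0 on the ALCAM+ side and 1 on the Sca-1+ side, and the median was -0.19. The partners Rxra and Rxrb, which bind DNA together with Vdr, gave 961.6 and 1667 in ALCAM+, 996.7 and 1612 in Sca-1+ and 858.2 and 1218 in double-negative cells, steps of at most 1.37-fold. Cyp24a1, the vitamin D degrading enzyme gene and a known Vdr target, was below the floor in all 3 populations. Cyp27a1, a sterol hydroxylase gene, gave 1108 in Sca-1+, 185.8 in double-negative and 58.9 in ALCAM+ cells.

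Of 9 measured oestrogen and androgen genes none reached 4-fold in any comparison; the median for ALCAM+ against Sca-1+ cells was 0. Gper1, a membrane oestrogen receptor gene, came closest, at 411.8 in double-negative, 139.7 in Sca-1+ and 115.3 in ALCAM+ cells. Esr2, the beta receptor gene, and Pgr, the progesterone receptor gene and a known target, were below the floor on all arrays.

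All 16 named glucocorticoid genes were measured. Against Sca-1+ cells, 0 passed 4-fold on the ALCAM+ side and 2 on the Sca-1+ side, and the median was 0.27. Hsd11b1, whose enzyme regenerates active glucocorticoid, gave 517.9 in Sca-1+, 132.9 in double-negative and 75.8 in ALCAM+ cells. Hsd11b2, whose enzyme inactivates it, followed the same order at 679.9, 113.9 and 57.7. Tsc22d3, a glucocorticoid-induced gene, ran opposite to Nr3c1 by the brightest probe set of each. It gave 2345 in ALCAM+, 1086 in double-negative and 610.2 in Sca-1+ cells. Of its 3 probe sets above the floor, 2 placed Sca-1+ cells below double-negative cells. The target gene Fkbp5 differed by at most 1.52-fold.

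Of 12 measured growth hormone and prolactin genes, 1 passed on the ALCAM+ side and 2 on the Sca-1+ side, and the median was -0.10. Igf1, the main growth hormone target, gave 16476 in Sca-1+, 2001 in double-negative and 1009 in ALCAM+ cells. Igfbp3, which encodes the main carrier of that factor, gave 1507, 199.4 and 35.4. Both were thus highest where Ghr was highest, but ALCAM+ cells held more Ghr than double-negative cells and less Igf1. Socs2, a feedback inhibitor gene of growth hormone signalling, was lowest in Sca-1+ cells, where Ghr was highest, at 4073 in ALCAM+, 3189.9 in double-negative and 963.1 in Sca-1+ cells. Its difference between ALCAM+ and Sca-1+ cells passed 4-fold under 5 of 9 alternatives. Ptpn6, a phosphatase gene prominent in blood cells, was 4.31-fold higher in double-negative than in ALCAM+ cells, at 728.7 against 169.1. That difference passed 4-fold under 6 of 9 alternatives.

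Among 10 measured thyroid hormone genes 1 passed on each side of this comparison, and the median was 0. Dio2, whose enzyme makes active thyroid hormone, gave 3023 in Sca-1+, 1461 in double-negative and 657.8 in ALCAM+ cells, and 2 of its 3 probe sets shared the direction between Sca-1+ and ALCAM+ cells. Me1, a malic enzyme gene induced by thyroid hormone in liver, gave 2982 in ALCAM+, 2507 in double-negative and 547.6 in Sca-1+ cells.

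Of 19 measured insulin genes 1 passed on the ALCAM+ side and 0 on the Sca-1+ side, and the median was 0.38. Grb14, which encodes an inhibitor that binds the insulin receptor, gave 9978 in ALCAM+, 7899.7 in double-negative and 434.3 in Sca-1+ cells, 23.0-fold and 18.2-fold above Sca-1+ cells. Slc2a1, a glucose transporter gene, gave 7678, 8346 and 2166 in the same populations, and Irs1, the insulin receptor substrate gene, differed by at most 1.69-fold.

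**Figure D4:**
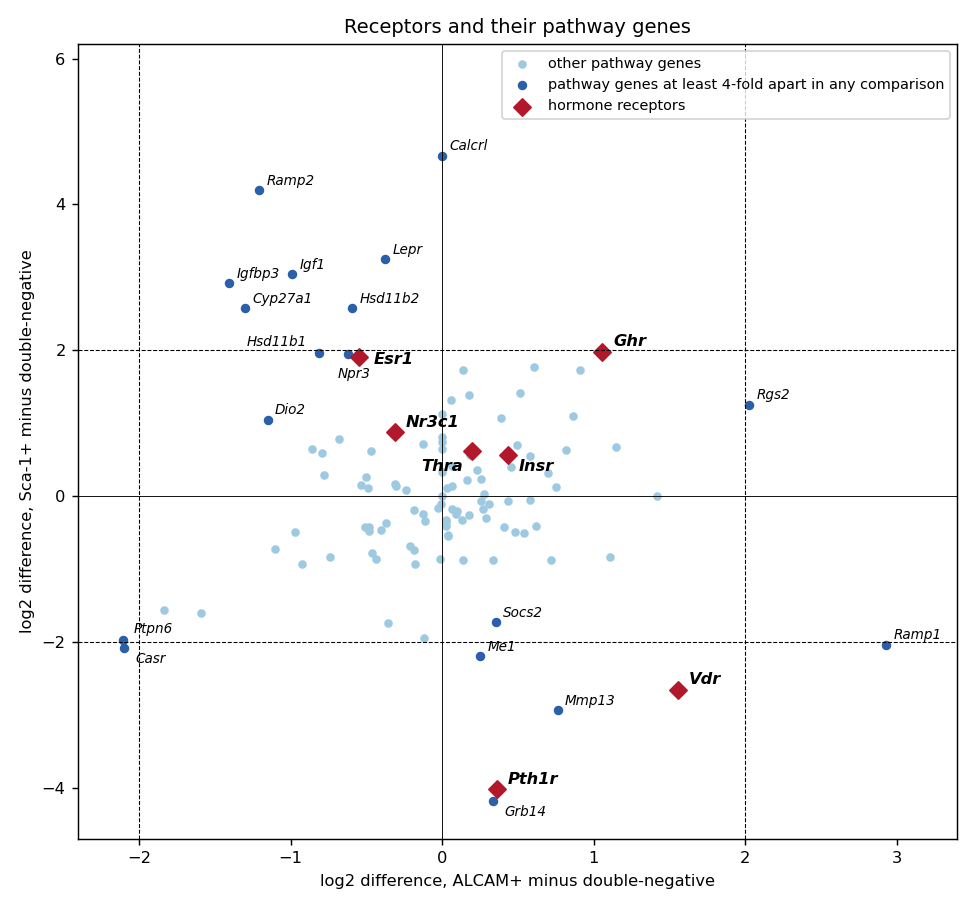
Each point is a measured gene, placed by its log2 difference in ALCAM+ (horizontal) and Sca-1+ (vertical) cells against double-negative cells; both axes share the double-negative array. Red diamonds are receptors, dark blue points pathway genes at least 4-fold apart in any comparison, light points the other pathway genes, and dashed lines mark 4-fold; Grb14 falls beside Pth1r.

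Among 9878 other genes above the floor on every array, the 3 nearest to each receptor were found from the root mean square distance of the 3 centred log2 signals. For Pth1r they were Grb14 (0.07), Lmo7 (0.09) and Slc39a8 (0.15), for Vdr Proser2 (0.14), Mef2c (0.16) and Unc5b (0.22), and for Esr1 Nlgn2 (0.03), Aldh3b1 (0.04) and Maob (0.04). Over 3 populations such likeness is easily had: 43 genes lay within 0.5 of Pth1r, 35 of Vdr and 567 of Esr1.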

How the data were processed

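The authors made the deposited signal intensities with MAS5, per the submitters' processing notes, which name no version. Per the labels, biotin-labelled cRNA came from TRIzol-extracted RNA by a 2-cycle assay, which favours 3′ ends. All 3 arrays shared a 2% trimmed mean of 500.0 and had medians of 70.8 to 81.9, so no further scaling was done. This scale hides differences in RNA per cell. Probe sets were named through the annotation table of the array: 34945 of 45037 non-control probe sets had 1 symbol, and 34741 of their Entrez identifiers were found in RefSeq (GRCm38.p6). Signals were raised to the floor before log2. Analysis used Python 3.11.15, pandas 2.3.3 and NumPy 2.4.6, and the procedure was tested on simulated data. The number of arrays limits precision. The members and lists were chosen with earlier results of these data known. Named are the receptors, list genes at least 4-fold apart in any comparison, and up to 4 per list with the largest differences; Nr1d1, Nr4a2, Rxra, Rxrb, Cyp24a1, Esr2, Pgr, Calcr, Pth2r, Pth, Fkbp5, Irs1, Cdh5 and Emcn were named after their values were seen, for their roles.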

Additional observations from a re-analysis of the deposited data

How the results depend on the processing

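Each of 9 alternatives changed 1 choice. The scale was changed by quantile normalization, or by scaling on poly-A or on hybridization controls. Floors were set at the 25th or 75th percentile or at the 95th percentile of olfactory receptor probe sets, or no floor was used. Probe sets were averaged, or those with names ending in _s_at, _x_at or _a_at were left out. In ALCAM+ against double-negative cells the count of receptors at least 4-fold apart was 0 under all 9, and 2 at 2-fold. In Sca-1+ against double-negative cells it was 2, but 4 at 2-fold and under either control scaling, with Esr1 and Ghr added, 3 under quantile normalization, with Ghr added just past 4-fold, and 1 with the floor at the 75th percentile, where Vdr was lost. In ALCAM+ against Sca-1+ cells it was 3, and 2 to 4 under the alternatives. Of 213 single-gene values 188 moved by less than the disagreement SD, 25 by more, and 0 of those past 4-fold turned sign. The 188 include those of Thrb, below the main floor, and values that a new floor or probe set choice could not change. Beyond what control scaling and floors do by construction, the cause of the moves was not tested. Ghr has no value when probe sets with these name endings are left out, since all 3 of its probe sets carry one. No paired analysis was possible because each population has 1 array.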

Other observations

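Of 26 other named hormone receptor genes outside the members, 14 reached the floor in 1 population or more, against 12643 of all 18193 named genes. For Sca-1+ against double-negative cells 1 was at least 4-fold higher and 0 lower, where 5.46% of measured genes were higher and 4.71% lower. The median log2 difference of these 14 receptor genes was 0.64, against 0 for all measured genes. Lepr, the leptin receptor gene and a marker of marrow stromal cells, gave 1337 in Sca-1+, 140.5 in double-negative and 108.2 in ALCAM+ cells. Npr3, the natriuretic peptide clearance receptor gene, gave 445.6, 115.7 and 37.8 in the same order. Npr2, whose receptor promotes growth of cartilage, was above the floor everywhere, at 4115 in Sca-1+, 2678 in double-negative and 1931 in ALCAM+ cells. Nr1h3, a liver X receptor gene, gave 303.5, 176.1 and 110.1.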
